A study of Mus musculus with 2 samples.

Results

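Collagen-rich cells were a small population, 188 of 13278 kept cells (1.42%, exact 95% Clopper-Pearson interval 1.22 to 1.63%), in cultures of mouse neural stem cells from the subventricular zone, a neurogenic region beside the lateral ventricles. A member was a cell barcode with at least 500 detected genes, at most 10% of its UMIs (unique molecular identifiers, counted here as RNA molecules) from mitochondrial genes, and at least 10 UMIs of Col1a1, Col1a2 and Col3a1 together. The members were thus chosen by the UMIs of these 3 genes, which encode the chains of the fibrillar collagens I and III, so their levels are a description. The cells came from strain C57/Bl6J, were expanded after isolation from postnatal brain, and were taken 3 days after the growth factors EGF and FGF were withdrawn. The treated library received 1 µM of the oxysterol 20HC and the control library received the vehicle DMSO. Both passed through the 10x Genomics 3′ kit, version 1, and were deposited as 1 matrix of 14685 barcodes. Barcodes end in 1 or 2 and no source ties an ending to a library, so no treatment comparison was made. Barcodes ending in 1 are called barcode set 1 and those ending in 2 barcode set 2, with no condition attached. The protocol given for the control names 20HC too, and the title decided its group.

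Fibroblasts and mural cells are the collagen-making cells around brain vessels and in the meninges, the membranes that cover the brain. Mural cells, which are pericytes and smooth muscle cells, wrap vessels and can contract through smooth muscle actin. Collagen chains are folded with the chaperone Serpinh1, trimmed outside the cell and cross-linked by lysyl oxidases, whereas collagen IV and laminins form the thin basement membrane.

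The rule drew its line in a sparse part of the distribution. Of the kept cells, 12819 had no UMI of the 3 collagen genes and 226 had 1, while 23 cells had 5 to 9 and 23 had 10 to 14. Members held a median of 29 collagen UMIs, with quartiles of 19 and 46 and a maximum of 117, and they held 93.4% of all collagen UMIs of the kept cells. Just inside the line, the 23 cells with 10 to 14 collagen UMIs had 8292 CPM of Acta2 and 1140.0 CPM of Dcn (CPM, UMIs of a gene among 1000000 UMIs of the summed cells). Just outside it, the 23 cells with 5 to 9 had 14686 CPM of Acta2 and 669 CPM of Dcn. The 165 cells with 15 or more had 3111 CPM of Acta2 and 2011 CPM of Dcn. The Acta2 levels are sums over cells, and a few of the cells with 10 to 14 collagen UMIs held most of that group's Acta2 UMIs. Across all members, the 10 richest in Acta2 held 58.0% of its UMIs and the median was 1 UMI. The Acta2 levels therefore do not describe a typical member. The matrix protein Sparc was level across the 3 groups, at 4581 CPM for 5 to 9, 4506 CPM for 10 to 14 and 4590.2 CPM for 15 or more collagen UMIs. The rule also left out 23 cells with at least 10 Acta2 UMIs and fewer than 10 collagen UMIs, which held 61.3% of the Acta2 UMIs counted outside the members. These are not the same set as the 23 cells with 5 to 9 collagen UMIs, since 8 of them had no collagen UMI.

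**Figure D1:**
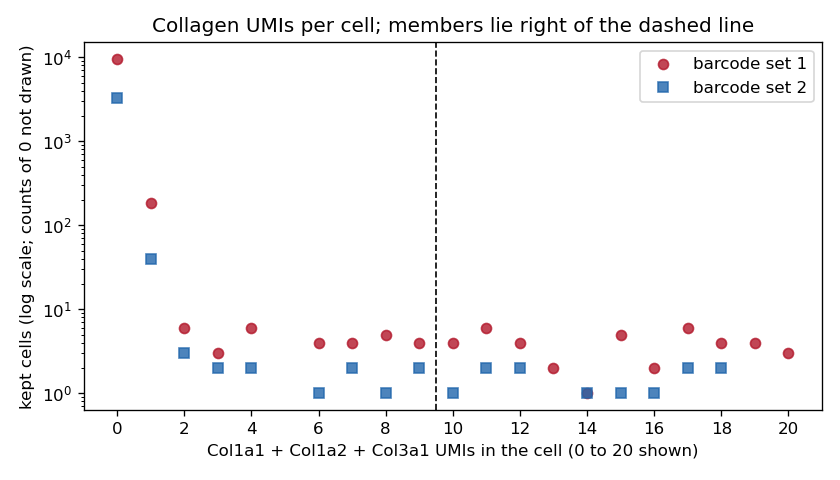
Number of kept cells (y, log scale) by the UMIs of Col1a1, Col1a2 and Col3a1 in the cell (x, 0 to 20), for barcode set 1 (circles) and set 2 (squares); the dashed line marks the 10 UMIs a member needed. Cells with 0 or 1 UMI form the high points at the left, and from 2 UMIs on no single count holds more than 9 cells in both sets together.

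Members were found in both barcode sets, 150 of 9869 kept cells in set 1 (1.52%, interval 1.29 to 1.78%) and 38 of 3409 in set 2 (1.11%, interval 0.79 to 1.53%). They were deeper than the other kept cells, with a median of 4447.5 UMIs and 1822 genes per member against 2845 UMIs and 1398 genes per other cell. Their mitochondrial share was lower, with a median of 1.95% in members against 3.07% in other cells. Barcode sequences were shared by the sets in 35 cases, of which 1 involved a member. There was 1 pooled matrix and no replicate, so no difference was tested. All intervals are 95% intervals that cover counting error only.

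The label fits the marker genes in part. Col1a1 (ENSMUSG00000001506, chr11:94936224-94953042, GRCm38) had 3347 CPM in members and 4.59 CPM in other kept cells. Col3a1 (chr1:45311538-45349706) had 1999 CPM in members and 4.70 CPM in other cells. Both were part of the rule. The remaining markers were Dcn, Acta2 and Vtn, whose UMIs were found in different but overlapping shares of the members.

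Dcn encodes decorin, a small proteoglycan that binds collagen fibrils. It lies at chr10:97479609-97518143 and had 1918 CPM in members (interval 1827 to 2012) and 5.24 CPM in other cells. Barcode set 1 members had 1847 CPM and set 2 members 2228 CPM. At least 1 Dcn UMI was found in 86.7% of members and in 1.11% of 987 Dlx-gated cells, a neuroblast type that should lack it. The gate asked for at least 3 UMIs of the neuroblast genes Dlx1, Dlx2, Dlx5 and Dlx6os1. It also asked for fewer than 20 UMIs of Gfap, Aldoc and Aqp4 together. Median depth was 4447.5 UMIs per member and 2845 per Dlx-gated cell. With every cell thinned to 1500 UMIs, which left out 4 members and 25 gated cells, the Dcn shares were 76.1% of members and 0.624% of Dlx-gated cells.

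Acta2 encodes smooth muscle actin and lies at chr19:34241090-34255590. It had 3663 CPM in members (interval 3537 to 3792) and 60.8 CPM in other cells, with 3327 CPM in set 1 members and 5134 CPM in set 2 members. Only 51.6% of members had an Acta2 UMI, against 2.03% of Dlx-gated cells (thinned, 37.5% of members and 1.56% of gated cells). The share was 5.03% in all other kept cells (thinned, 2.90%). It was 6.61% in cells gated on Gfap, Aldoc and Aqp4 (thinned, 3.45%). The Acta2 UMIs of members were concentrated, since the 10 richest members held 58.0% of them and 1 member held 421. Vtn, which encodes vitronectin and is a textbook pericyte marker in brain, had 334 CPM in members and 4.05 CPM in other cells, with a UMI in 39.4% of members (thinned, 24.5%).

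Genes with at least 30 UMIs were compared between members and other kept cells by the log2 ratio of CPM + 5. A gene was called when the ratio passed 2-fold and each barcode set alone pointed the same way. Outside the 3 genes of the rule, 881 of 13063 genes (6.74%) were called higher in members and 1298 (9.94%) were called lower. With 5 added, a gene under 5 CPM in other cells could not be called lower, even with no UMI in members. This limits the counts of lower genes here and in the lists. The median log2 ratio over all genes was -0.19, and this sets the level for the gene lists.

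The 20 genes with the largest ratios (beside the rule, at least 100 UMIs and a UMI in 25% of members) were mostly matrix and secreted proteins. Basement membrane genes were among them, with Col4a1 at 905 CPM in members and 11.1 CPM in other cells and Nid1, which links collagen IV to laminin, at 245 CPM in members and 2.72 CPM in other cells. Serpinf1, a secreted inhibitor of vessel growth, had 799 CPM in members and 7.68 CPM in other cells, with a UMI in 87.2% of members. Lum, a proteoglycan relative of Dcn, had 308 CPM in members and 0.960 CPM in other cells. Cthrc1, a secreted protein of collagen-making cells, had 596 CPM in members and 7.58 CPM in other cells. The other genes in this group were Dcn, Col4a2, Acta2, Apod, Igf2, Nupr1, Tgm2, Vtn, Col8a1, Aldh1a2, Ifitm1, Ctsk, Bgn, Igfbp3 and Tagln.

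**Figure D2:**
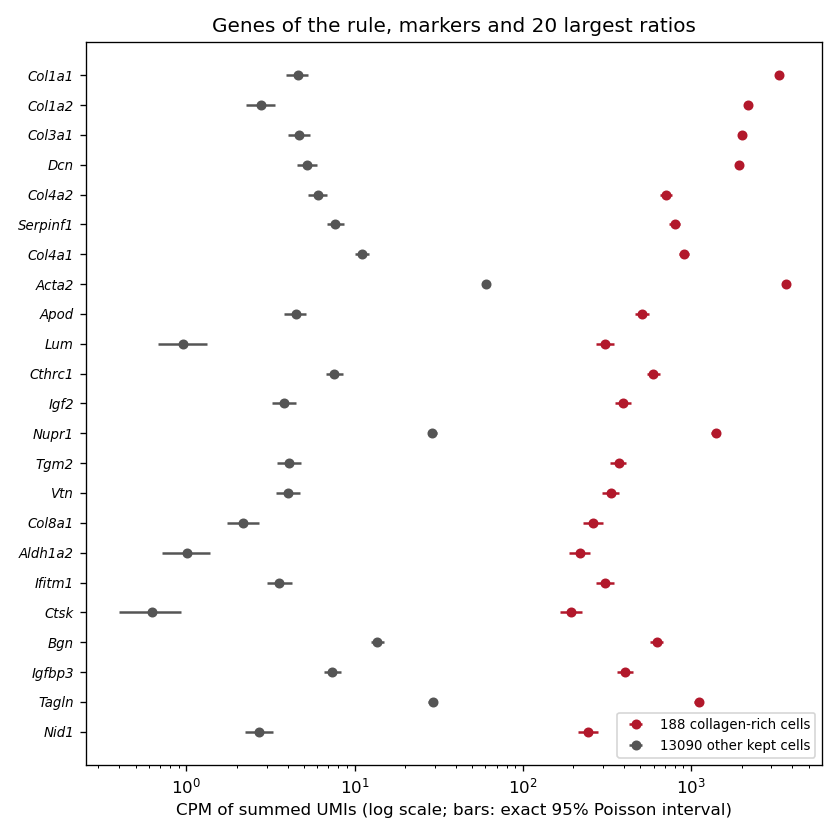
CPM of summed UMIs (x, log scale) for the genes of the rule, the markers and the 20 largest ratios in 188 collagen-rich cells (red) and 13090 other kept cells (grey); bars are exact 95% Poisson intervals. The red points lie between Ctsk at 194 CPM and Acta2 at 3663 CPM, and the grey ones between Ctsk at 0.623 CPM and Acta2 at 60.8 CPM.

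Matrix genes were higher as groups. Of 4 fibrillar collagens outside the rule, 3 were called higher (median log2 ratio 3.45), with Col5a1 and Col5a2 at 216 and 330.2 CPM in members and 5.60 and 9.13 CPM in other cells. Of 15 basement membrane genes tested, 11 were called higher and 1 lower, with a median log2 ratio of 2.99. Lama4, the laminin chain of vessel and mesenchymal basement membranes, had 174 CPM in members and 0.908 CPM in other cells. Lama5, a laminin chain of epithelial and vessel basement membranes, had no UMI in members and 12.1 CPM in other cells, where 0 allows up to 3 UMIs. Of 7 other collagens, 5 were higher and none lower, with a median of 4.13. The collagen VI genes Col6a1 and Col6a2 had 319.9 and 175 CPM in members, against 6.95 and 0.908 CPM in other cells.

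Proteoglycans were split, with 5 of 9 higher and 1 lower (median 2.39), and the lower one was Prelp at 3.44 CPM in members and 13.1 CPM in other cells. Of 11 matricellular genes, 9 were higher and none lower (median 2.68). Among them Fn1, fibronectin, had 652 CPM in members and 62.0 CPM in other cells. Spp1, osteopontin, had 1591 CPM in members and 92.4 CPM in other cells. Sparc had 4581 CPM in members and 1204 CPM in other cells. Postn, a marker of activated fibroblasts, had 32.1 CPM in members and 0.104 CPM in other cells, with a UMI in 13.3% of members. Elastic fibre genes were higher in 10 of 13 cases and lower in none (median 2.68), as with the fibrillins Fbn1 and Fbn2, at 108 and 149 CPM in members and 4.80 and 1.97 CPM in other cells.

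The machinery that makes and finishes collagen followed the same direction, with 18 of 22 genes higher and 1 lower (median 2.21). Serpinh1, the collagen chaperone, had at least 1 UMI in every member and reached 1939 CPM in members and 129.8 CPM in other cells. Pcolce, which speeds the trimming of procollagen, had 222 CPM in members and 2.52 CPM in other cells. The cross-linking enzymes Lox and Loxl2 had 84.8 and 175 CPM in members and 0.337 and 6.62 CPM in other cells. Ppib, a folding enzyme used by most secretory cells, was at 1016 CPM in members and 523 CPM in other cells, below the 2-fold line. P4ha3 was the gene called lower. Matrix proteases and their inhibitors were higher in 10 of 13 cases (median 1.90), including Mmp2 and Timp3.

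A UMI of any meningeal fibroblast marker was found in 90.4% of members and 29.6% of other cells, not thinned. The share was 43.5% in cells gated on Gfap, Aldoc and Aqp4. Single markers were less frequent, as with Aldh1a2 in 47.9% of members. Of 9 tested meningeal fibroblast markers, 8 were called higher and 1 lower, with a median log2 ratio of 4.27. The retinoic acid enzyme Aldh1a2 had 218 CPM in members and 1.01 CPM in other cells. The GABA transporter Slc6a13 had 152 CPM in members and 0.830 CPM in other cells, and the growth factor Igf2 had 394 CPM in members and 3.81 CPM in other cells. Ptgds was the lower one, at 36.7 CPM in members and 142 CPM in other cells, and Slc47a1 had no UMI in any kept cell.

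Transcription factors of the meninges were also found. Foxc1, a forkhead factor needed for meninges formation in mice (chr13:31806633-31812476), had 127 CPM in members and 1.09 CPM in other cells. Tbx18, a T-box factor of mural and meningeal cells, had 103 CPM in members and 0.597 CPM in other cells, and Osr1, a factor of embryonic mesenchyme, had 115 CPM in members and 0.441 CPM in other cells. Zic1, a zinc finger factor of the developing brain and meninges, was chosen after its values were seen and had 209 CPM in members and 2.02 CPM in other cells. A UMI of at least 1 of Foxc1, Tbx18, Osr1 and Zic1 was found in 86.7% of members (interval 81.0 to 91.2%) and in 0.863% of other cells, with 0.912% in Dlx-gated cells. The wider list of mesenchymal factors had 7 of 13 tested genes higher and 1 lower (median 1.56). Tcf21 and Foxf1, factors of mesenchyme in other organs, had no UMI in any kept cell.

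Fibroblast markers were higher in 9 of 10 cases (median 3.69), and the exception was Gsn, gelsolin, at 208 CPM in members and 122 CPM in other cells. Pdgfra is known both in fibroblasts and in oligodendrocyte precursors. It had 28.7 CPM in members (interval 18.5 to 42.3) and 8.04 CPM in other cells, with a UMI in 11.2% of members and 1.72% of Dlx-gated cells. Thinned to 1500 UMIs, the shares were 1.09% of members and 1.13% of other cells. The first rests on 2 of 184 members (interval 0.132 to 3.87%), too few to tell the thinned shares apart. Pdgfra counts as higher by its CPM, where the interval in other cells was 7.17 to 8.99.

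The contractile list had 23 of 25 tested genes higher and 1 lower, Cnn3 (median 2.56). Smooth muscle markers were higher in 9 of 9 tested cases (median 3.55). Myh11, the myosin of mature smooth muscle, had too few UMIs to be tested, at 4.59 CPM in members and 0.208 CPM in other cells. Pericyte markers were higher in 5 of 7 tested cases (median 2.21). Pdgfrb, the receptor that draws mural cells to vessels, had 72.2 CPM in members and 2.15 CPM in other cells. Rgs5 had 32.1 CPM in members and 3.04 CPM in other cells, with a UMI in 5.85% of members. Other genes of this list of 12 were near 0 in members, with no UMI of Abcc9 or Atp13a5, 1.15 CPM of Higd1b and 5.73 CPM of Kcnj8.

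**Figure D3:**
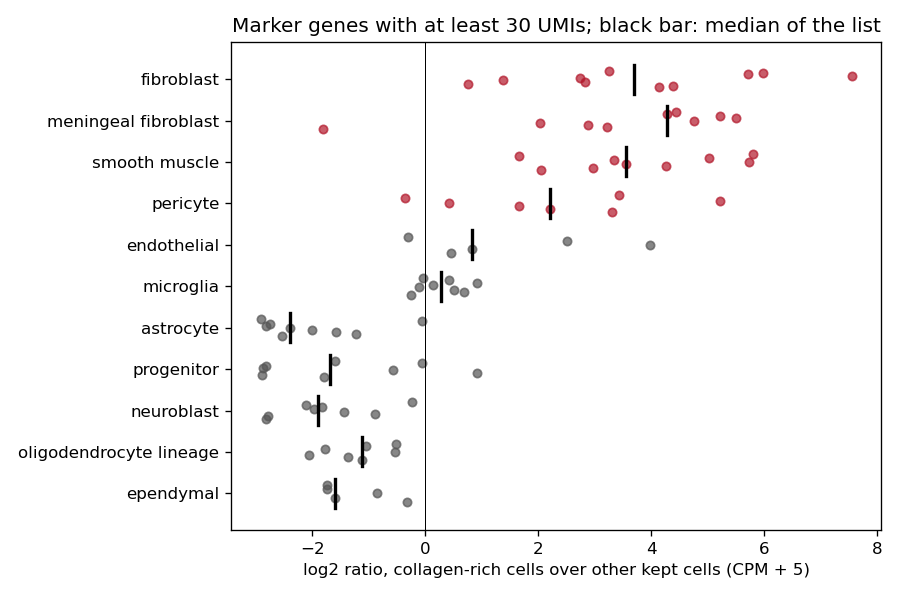
Log2 ratio of CPM + 5 in collagen-rich cells over other kept cells (x) for each marker gene with at least 30 UMIs, by list (y); the black bar is the median of the list, and red marks the fibroblast, meningeal, smooth muscle and pericyte lists. The red medians lie between 2.21 and 4.27, and the medians of the astrocyte, progenitor, neuroblast, oligodendrocyte lineage and ependymal lists lie below 0.

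Markers of other cell types were mostly lower or near 0. Of 5 tested endothelial markers 2 were higher, Cdh5 at 75.7 CPM in members and 0.104 CPM in other cells and Esam at 25.2 CPM in members and 0.285 CPM in other cells. Cdh5, the cadherin of vessel junctions, had a UMI in 24.5% of members and in none of the 987 Dlx-gated cells. The other endothelial markers were low, with no UMI of Cldn5 or Tie1 in members and Pecam1 at 3.44 CPM in members and 5.40 CPM in other cells. Microglia markers were called in none of 8 cases, and 1 member with 86 of these UMIs held most of the list.

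Most neural markers were lower in members. Of 9 astrocyte markers 8 were lower (median -2.41), of 8 neuroblast markers 6, of 8 progenitor markers 5, of 7 oligodendrocyte lineage markers 5 and of 5 ependymal markers 3, and none was higher. The astrocyte marker not called was Slc1a3, at 365 CPM in members, 381 CPM in other cells and 89.0 CPM in Dlx-gated cells. Its UMIs were found in 66.5% of members and 53.1% of other cells, not thinned. Gfap had 489.5 CPM in members and 3312 CPM in other cells. The Dlx-gated cells had 462 CPM of Gfap, a level limited by their gate, which capped Gfap, Aldoc and Aqp4 UMIs. Apoe had 988 CPM in members and 5293 CPM in other cells, with 1042 CPM in Dlx-gated cells. At least 10 UMIs of the astrocyte, neuroblast and oligodendrocyte lineage markers together were found in 28 members. Without these 28, Gfap stood at 258 CPM in members, while Dcn was at 1983 and Acta2 at 4139 CPM. Gfap is itself one of the counted markers, so its lower level is partly built in. The part of free RNA or of doublets in these neural UMIs was not tested. Scrublet marked 1 member as a doublet.

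The 8 genes with the smallest ratios among genes of at least 200 CPM in other cells were Ednrb, Mlc1, Thrsp, Id2, Tagln3, Plekhb1, Aqp4 and Atp1b1. Ednrb, an endothelin receptor of astrocytes, had 63.1 CPM in members and 657 CPM in other cells. The astrocyte water channel Aqp4 had 88.3 CPM in members and 700.0 CPM in other cells.

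Growth factor systems differed by family. The IGF list had 10 of 11 genes higher (median 2.95), among them the ligand Igf1 at 96.3 CPM in members and 8.10 CPM in other cells and the binding protein Igfbp4 at 263 CPM in members and 5.84 CPM in other cells. Of 17 tested TGF-beta genes 7 were higher and none lower (median 0.51). The ligand Tgfb2 had 162 CPM in members and 44.7 CPM in other cells, and the receptor Tgfbr2 had 35.5 CPM in members and 2.18 CPM in other cells. The secreted protein Fstl1 had 784 CPM in members and 34.6 CPM in other cells. Smad2, Smad4 and Smad7 were not called. In the PDGF list 3 of 4 genes were higher, Pdgfc, Pdgfra and Pdgfrb.

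BMP and Wnt genes were mixed, with 9 of 17 higher and 2 lower (median 1.00). Bmp4 had 139 CPM in members and 3.22 CPM in other cells, whereas the BMP response genes Id1 and Id2 had 52.7 and 41.3 CPM in members and 244 and 360.2 CPM in other cells. Integrins and collagen receptors were higher in 7 of 9 cases and lower in 1. Of 9 chemokine and cytokine genes 5 were higher and 1 lower, with Cxcl12 at 144 CPM in members and 1.22 CPM in other cells. Interferon and antigen presentation genes were higher in 7 of 9 cases (median 1.83), among them B2m at 613 CPM in members and 146 CPM in other cells.

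The study's title concerns an oxysterol and the Hedgehog factor Gli2, and lists close to both were counted. Of 8 tested Hedgehog genes 1 was higher, Gli3 at 25.2 CPM in members and 8.90 CPM in other cells, and the list median was 0.14. Gli2 itself had 5.73 CPM in members and 4.70 CPM in other cells. None of 23 cholesterol synthesis genes was called (median -0.37). Of 11 targets and partners of the oxysterol receptor LXR, 2 were higher and 4 lower (median -0.65), with Apoe among the lower ones. The sterol exporter Abca1 had 28.7 CPM in members and 72.2 CPM in other cells, and the lipid transfer protein Pltp had 234 CPM in members and 70.8 CPM in other cells.

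UMIs of the mitotic genes Mki67, Top2a, Cdk1, Ube2c or Cenpf were present in some members. They were found in 49.5% of members and 37.0% of other cells, and in 37.0% of members and 31.5% of other cells once each cell was thinned to 1500 UMIs. Among Dlx-gated cells the thinned share was 76.6%. The level of the same genes was lower in members, at a summed 726 CPM in members and 1129 CPM in other cells. Single genes were not higher in members once thinned, with Mki67 UMIs in 7.61% of members and 10.1% of other cells and Top2a UMIs in 18.5% of members and 18.5% of other cells. Of 14 G2 and M phase genes 1 was lower and none higher (median -0.65). Of 14 S phase genes 4 were lower and none higher (median -0.54), with Pcna at 64.2 CPM in members and 208 CPM in other cells. Of 9 cell cycle inhibitors 2 were higher and none lower (median 0.07), with Cdkn2a at 354 CPM in members and 109 CPM in other cells.

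The members were ordered by the share of their UMIs from 5 contractile genes, Acta2, Tagln, Myl9, Tpm2 and Cnn1, and cut into 3 parts of 62, 64 and 62 cells. The parts are ranges of a score and not cell types, and 26 members lay within 1.5 times of the upper cut. Score UMIs per 10000 ran between 16.6 and 933 in the top part (median 97.9) and between 0 and 3.01 in the bottom part, where 36 cells had none. Median depth was 4776.5 UMIs per cell in the top part and 4349 in the bottom part. Collagen per 10000 UMIs had a median of 61.5 in the top part and 70.4 in the bottom part. The top part held 49 cells of set 1 and 13 of set 2, and so did the bottom part.

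The 5 genes of the score are given without any call. Acta2 had 10629.7 CPM in the top part, 245 in the middle and 7.04 in the bottom part. Tagln, the actin-binding protein transgelin, had 3157 CPM in the top part, 129 in the middle and 7.04 in the bottom part. Myl9, a myosin light chain, had 2210.4 CPM in the top part, 129 in the middle and 14.1 in the bottom part. Tpm2, a tropomyosin, had 937 CPM in the top part, 258 in the middle and 70.4 in the bottom part, and Cnn1, calponin, had 480.2 CPM in the top part and none in the bottom part.

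Promoters of score genes were searched because the serum response factor is known to bind a short element, the CArG box, in smooth muscle promoters. Tagln had no promoter sequence in the reference used. RefSeq sequences (GRCm38.p6) covering 250 bases before to 50 after the start were matched for Acta2 (chr19:34255324-34255623, minus strand), Myl9 (chr2:156775214-156775513, plus strand), Tpm2 and Cnn1. Capitals mark CArG boxes, which are CC, 6 letters of A or T, and GG, a pattern that reads the same on both strands. At most 1 mismatch was allowed, only among the 6 middle letters.
Acta2: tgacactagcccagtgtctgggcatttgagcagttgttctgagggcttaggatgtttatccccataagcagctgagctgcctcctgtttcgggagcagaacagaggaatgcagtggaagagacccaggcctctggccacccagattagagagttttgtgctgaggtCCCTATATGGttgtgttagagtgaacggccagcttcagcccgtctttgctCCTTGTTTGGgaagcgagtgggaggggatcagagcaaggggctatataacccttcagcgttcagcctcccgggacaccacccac
Myl9: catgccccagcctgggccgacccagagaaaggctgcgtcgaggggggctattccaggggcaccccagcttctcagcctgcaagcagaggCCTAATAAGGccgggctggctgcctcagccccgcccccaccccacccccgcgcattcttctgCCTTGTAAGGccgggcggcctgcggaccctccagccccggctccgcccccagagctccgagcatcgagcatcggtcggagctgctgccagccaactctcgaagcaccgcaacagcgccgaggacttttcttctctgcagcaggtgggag
Acta2 held 2 such matches, beginning 84 and 34 bases before the start, both with 1 mismatch. Myl9 held 1 exact match 161 bases before the start and 1 with a mismatch at 99. Tpm2 and Cnn1 held none in this window. Outside the score, Col1a2 of the rule held 1 match with a mismatch, 228 bases before the start, and Col3a1 and Vtn held none. Of all 27025 promoters of 300 bases, 1.57% held an exact box, 10.0% held one with at most 1 mismatch, and 0.836% held at least 2 of these. Of the 26 genes of the contractile list 22 had a promoter, and 4 of them (Acta2, Cnn2, Myl9 and Vcl) held a match with at most 1 mismatch. Srf, which encodes this factor, had 10.3 CPM in members and 9.39 CPM in other cells, and its partner Myocd had no UMI in any kept cell. The mismatch was allowed after the exact search had given none in Acta2.

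Between the top and the bottom part, 3780 genes had at least 30 UMIs in members, and a gene was called when the ratio passed 2-fold and the Poisson intervals did not overlap. The call was met by 160 genes (4.23%) higher in the top part and 111 (2.94%) lower, with a median log2 ratio of -0.04 over all genes. Of 18 contractile genes outside the score, 15 were higher and none lower (median 1.78, with Actg2 and Des above it at their lower bounds too). Tpm1, a tropomyosin, had 4605 CPM in the top part and 408 in the bottom part. Cald1, caldesmon, had 3542 CPM in the top part and 609 in the bottom part. Mylk, the kinase of myosin light chain, had 259 CPM in the top part and 3.52 in the bottom part.

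The enteric and visceral smooth muscle actin Actg2 had 947 CPM in the top part and no UMI in the bottom part, at least 89.7-fold higher with 3 UMIs allowed for 0. It was found in 19 cells, all in the top part, and the 10 richest of them held 91.7% of its UMIs. Lmcd1, a LIM domain protein, had 487 CPM in the top part and none in the bottom part, at least 46.1-fold higher. Matricellular genes went both ways, with 4 of 9 higher and 2 lower, Sparcl1 and Tgfbi. Tnc, tenascin C, had 562 CPM in the top part and 38.7 in the bottom part. Cyr61, a target of the coactivator YAP, had 354 CPM in the top part and 17.6 in the bottom part. Adm, the vasodilator peptide adrenomedullin, had 443 CPM in the top part and 42.2 in the bottom part. The 10 richest members held 69.9% of the Adm UMIs, and 26 cells of the top part had any. Phldb2 and Anxa3 were the remaining genes of the 8 largest ratios.

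**Figure D4:**
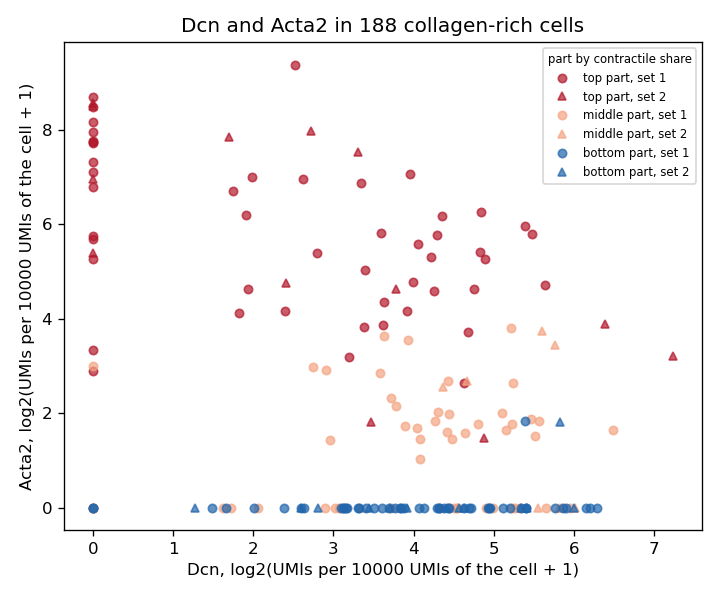
Dcn (x) and Acta2 (y) in each of 188 collagen-rich cells, as log2 of UMIs per 10000 UMIs of the cell + 1; colour gives the part by contractile share (red top, light middle, blue bottom) and shape the barcode set. Cells lie along both axes and also in between, where 26 cells have at least 5 raw UMIs of both genes.

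Pericyte markers were higher in the top part in 3 of 4 tested cases. Vtn had 722 CPM in the top part and 120 in the bottom part, Pdgfrb had 136 CPM in the top part and 21.1 in the bottom part, and Des, the muscle filament desmin, had 136 CPM in the top part and no UMI in the bottom part, at least 12.9-fold higher. Des had 41 UMIs in members, and the 10 richest members held 85.4% of them. Rgs5 UMIs were found in 11 cells of the top part and in none of the other members. Meningeal markers were called in none of 7 cases (median -0.09), with Aldh1a2 at 225 CPM in the top part and 215 in the bottom part and Foxc1 at 116 CPM in the top part and 148 in the bottom part. A UMI of Foxc1, Tbx18, Osr1 or Zic1 was found in 53 of 62 cells of the top part and 57 of 62 of the bottom part.

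Basement membrane genes were called in none of 12 cases (median 0.12), and Serpinh1 had 1986 CPM in the top part and 1802 in the bottom part. Other collagens went both ways, with Col8a1, a short-chain collagen of vessels, at 620 CPM in the top part and 66.9 in the bottom part. Col6a1 and Col6a2 were lower, at 160.1 and 74.9 CPM in the top part and 471.5 and 215 CPM in the bottom part. Among proteoglycans, Bgn, biglycan, had 954 CPM in the top part and 369 in the bottom part, while Lum had 146.5 CPM in the top part and 457.5 in the bottom part. Dcn had 1161 CPM in the top part and 2245 in the bottom part, a ratio just short of the call, and its UMIs were found in 67.7% of cells in the top part and 96.8% in the bottom part.

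The 8 smallest ratios were Igfbp5, Enpp2, Mt3, Islr, Nnat, Arl4a, Sparcl1 and Igfbp3. Igfbp5, an IGF binding protein, had 347 CPM in the top part, 2116 in the middle and 2593 in the bottom part. Enpp2, the enzyme autotaxin that makes lysophosphatidic acid, had 44.3 CPM in the top part and 341 in the bottom part. The IGF list was split, with 3 of 10 genes higher and 4 lower. Igfbp7 and Igfbp2 had 249 and 344.0 CPM in the top part and 31.7 and 91.5 CPM in the bottom part, against lower levels in the top part for Igfbp3, Igfbp4, Igfbp5 and Igfbp6.

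Of 7 TGF-beta genes 3 were higher in the top part, Tgfb3 at 129 CPM in the top part and 7.04 in the bottom part, Fstl1 at 1243 CPM in the top part and 415 in the bottom part, and Inhba at 85.1 CPM in the top part and 24.6 in the bottom part. Of 4 tested cell cycle inhibitors 2 were higher in the top part and none lower. Cdkn2a and Cdkn2b had 545 and 245 CPM in the top part and 208 and 35.2 CPM in the bottom part. Of 10 S phase genes 3 were lower (Mcm3, Mcm6 and Pcna), and UMIs of mitotic genes were found in 33.9% of cells in the top part (interval 22.3 to 47.0%) and 58.1% in the bottom part (interval 44.8 to 70.4%), at similar depth. Astrocyte markers were also lower in the top part in 2 of 6 cases, Slc1a2 at 13.6 CPM in the top part and 63.3 in the bottom part and Slc1a3 at 153 CPM in the top part and 496 in the bottom part. Gfap was not called, at 276 CPM in the top part and 482 in the bottom part. The other kept cells had 381 CPM of Slc1a3 and 3312 CPM of Gfap. The role of carried-over neural RNA in these ratios was not tested.

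**Figure D5:**
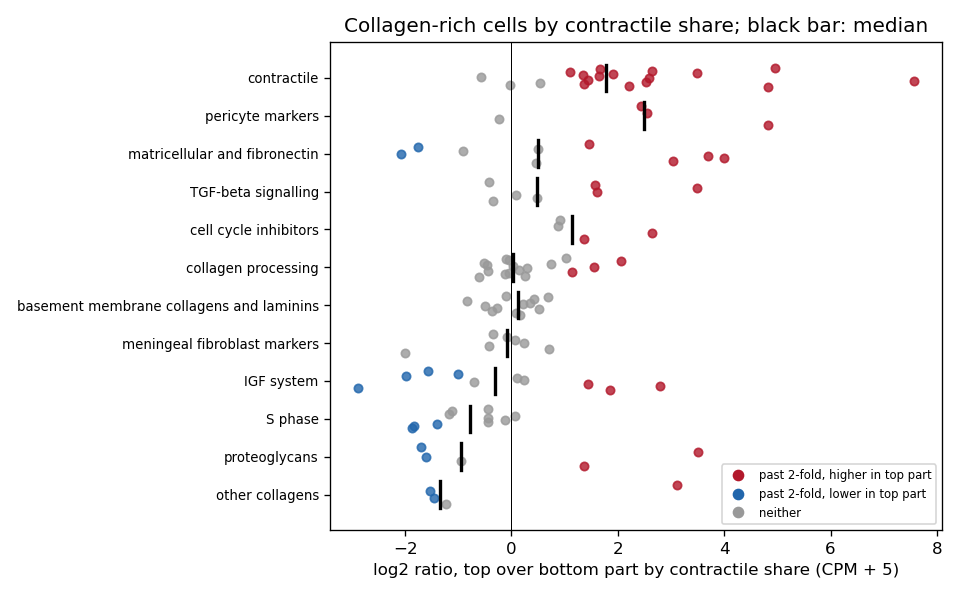
Log2 ratio of CPM + 5, top over bottom part of the collagen-rich cells by contractile share (x), for genes with at least 30 UMIs in members by list (y); the 5 genes of the score and the 3 of the rule are not drawn, red and blue mark called genes and the black bar is the median. Of the contractile genes 15 of 18 are red, and none of the basement membrane or meningeal genes is coloured.

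Counts per cell overlapped. At 5 UMIs as the line, 95 members had Dcn alone, 33 had Acta2 alone, 26 had both and 34 had neither. A Vtn UMI was found in 24 of the 33 cells with Acta2 alone (72.7%), in 32 of the 95 with Dcn alone (33.7%), in 5 of the 26 with both (19.2%) and in 13 of the 34 with neither (38.2%). Across the 188 cells, which come from 1 matrix and differ in depth, Spearman's rho of UMIs per 10000 was 0.80 for Acta2 with Tagln, -0.31 for Dcn with Acta2, 0.48 for Dcn with Lum and -0.45 for Dcn with Tagln. Summed collagen and summed contractile UMIs had a rho of -0.17. These are descriptions over cells and not replicates.

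Members of the barcode sets were set side by side with no condition. Of 1346 genes, 36 (2.67%) differed by more than 2-fold in either direction. The genes largest in set 1 were Bex1, Ube2c, Cyc1, Apoe and Gm10709, with Apoe at 1122 CPM in set 1 members and 401 CPM in set 2 members. Apoe differed between the sets in the other kept cells too, at 6081 CPM in set 1 and 3064 CPM in set 2. The genes largest in set 2 were Lmcd1, Actg2, Adm, Parm1 and Loxl1. Actg2 had 211 CPM in 150 members of set 1 and 789.9 CPM in 38 members of set 2, where 4 cells held all 128 of its UMIs.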

How the data were processed

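Deposited values were whole UMI counts per gene and barcode in 1 pooled matrix (28692 genes, 41462326 UMIs), made by the authors with Cell Ranger 2.1.1 and the mm10 build, per the submitters' processing notes. Nothing ties barcode endings to libraries, so the matrix was 1 sample. Leaving out 635 barcodes under 500 genes and 912 over 10% mitochondrial UMIs (1407 in all) left 13278 cells, which held 872255 UMIs in members and 38538072 in other cells.

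The rule gave the members. The members and gene lists were chosen with earlier results of these data known. Counts were summed over cells and scaled to CPM with exact Poisson 95% intervals (scipy 1.17.1, numpy 2.4.6, pandas 2.3.3, Python 3.11.15); shares have Clopper-Pearson intervals. Ratios used CPM + 5, and no p-value was computed. Text names the markers, the 20 largest and 8 smallest ratios, genes of the lists (all of the marker, matrix, contractile, TGF-beta and PDGF lists, otherwise the 3 with most UMIs), the 8 largest and smallest between parts by contractile share and the 5 between barcode sets; genes named beyond this, such as Gli2, Abca1 and Fabp4, and the share of cells with a Foxc1, Tbx18, Osr1 or Zic1 UMI, were chosen after the values were seen. Doublets were marked with Scrublet (scanpy 1.11.5, expected 0.8% per 1000 cells; 239 of 9869 and 11 of 3409 cells) and kept; those in set 2 (0.323%) were fewer than the 2.73% expected. Positions are from GENCODE M21, where 98.8% of IDs were found. The ratio was tested on simulated data. Alternatives were other collagen minimums, cell filters, pseudocounts, doublet and barcode handling, and thinning. Symbols held by more than 1 ID numbered 67.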

Additional observations from a re-analysis of the deposited data

Results flagged for a closer look

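A collagen signal also appeared in data the comparisons did not use. Of the 1407 barcodes outside the cell filter, 2 had at least 10 UMIs of Col1a1, Col1a2 and Col3a1. They held 31 and 16 collagen UMIs, with mitochondrial shares of 12.2% and 13.7% and 20 and 17 Dcn UMIs, and neither had an Acta2 UMI. Both are in barcode set 2. With no cell filter there were 190 members in all.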

How the results depend on the processing

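No paired analysis was possible because there was 1 library per condition, the conditions share only the replicate number 1, and no result comes from a test. Over the alternatives, apart from single barcode sets, the number of members lay between 138 (at least 20 collagen UMIs) and 211 (at least 5); barcode set 2 alone had 38. Genes called higher numbered 855 to 1147. Genes called lower numbered 2516 in barcode set 2 alone and 2706 with CPM + 1, against 1298 as reported, and 1232 to 1552 under the other alternatives. The larger counts come with fewer member UMIs and a smaller pseudocount. With CPM + 1, the level in other cells that a lower call needs falls from 5 CPM to 1 CPM. The cause of the larger counts was not tested. The median log2 ratio of contractile genes between parts lay between 1.62 and 2.0. No direction was reversed. Among single genes, shares and list medians 481 values stayed within the reported value's counting error (list medians, within 1.5-fold) and 107 did not, 27 of these on CPM + 1. The pericyte median was 1.52 in set 2 alone and 3.04 on CPM + 1. The alternatives leaving out shared barcode sequences, other cells with 1 to 9 collagen UMIs or astrocyte-gated cells were chosen after seeing the data. At a median of 4447.5 UMIs per member, genes under about 30 UMIs in sum could not be compared.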

Other observations

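Cells with at least 10 Acta2 UMIs were found on both sides of the collagen line, 49 among the members and 23 with fewer than 10 collagen UMIs, of which 8 had none. The 49 members had 12537 CPM of Acta2, 3555 CPM of Tagln, 738 CPM of Vtn and 987 CPM of Dcn. The 23 other cells, 14 in barcode set 1 and 9 in set 2, had 15074 CPM of Acta2, 4506 CPM of Tagln, 1197 CPM of Vtn and 326 CPM of Dcn. Foxc1 stood at 118 CPM in the 49 members and 94.5 CPM in the 23 cells, on 29 and 9 UMIs. Sparc was at 5496 CPM in the 49 members and 4212 CPM in the 23 cells. Neural RNA was lower in the members, with Gfap at 294 CPM in the 49 members and 966 CPM in the 23 cells, Fabp7 at 97.9 CPM in the 49 members and 1008 CPM in the 23 cells, and Aqp4 at 36.7 CPM in the 49 members and 599 CPM in the 23 cells.

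Fabp4, a fatty acid carrier of fat and vessel cells, had UMIs in 1 of 62 members of the top part by contractile share, 12 of 64 of the middle and 18 of 62 of the bottom part, and its 10 richest members held 72.2% of its UMIs.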
